A study of Mus musculus with 9 samples.

Results

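Cell cycle and DNA replication genes were followed in CT2A brain tumours of mice, taken 5 days after tumour resection. The list held 39 genes named by symbol, 22 of which act in mitosis and 17 in DNA replication or in the step that leads into it. All 39 were found among the 18639 gene entries of each file, and all 39 were among the 13829 genes tested. CT2A is a mouse glioma cell line, and RNA of whole tumour tissue was sequenced in 3 groups of 3 libraries. The ThTC group received cells that secrete interferon-beta and GM-CSF, cytokines that act on immune cells, the GFP-TC group received control cells without these factors in their description, and the sECM only group received sECM. The labels spell out neither TC nor sECM and do not name the cell type that carries the factors, and every group shares the CT2A tumour, the resection and the day of sampling. Comparing ThTC with GFP-TC asks what cells with the secreted factors add to control cells, and comparing each with sECM only asks how tumours given the cells differ from those given sECM alone.

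Values were deposited as TPM, a transcript abundance scaled by transcript length and library total, so that levels of different genes can be set side by side. TPM keeps no depth, and the labels state only 4.47 Gb of bases per sample. Whether each library was a separate animal is not stated, so the p-values reflect the spread between these libraries alone, which may be technical. The tissue was a mixture: a list of 10 neuron genes summed to 183 to 1748 TPM in ThTC libraries, 103 to 1530 TPM in GFP-TC libraries and 256 to 459 TPM in sECM only libraries. A list of 10 macrophage and microglia genes summed to 4375 to 6536 TPM in ThTC libraries, 1859 to 4548 TPM in GFP-TC libraries and 3329 to 4228 TPM in sECM only libraries. No gene of either list was at 0 in any library. In bulk tissue, fewer dividing cells and less cell cycle RNA per cell cannot be told apart.

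A dividing cell copies its DNA once and then parts the copies. Cyclin E with its kinase, and E2F transcription factors, start the genes of DNA synthesis. The MCM helicase is loaded on DNA by Cdc6 and Cdt1, joined by Cdc45 and the GINS complex, and followed by polymerases held on the sliding clamp Pcna. Later, cyclins A and B with Cdk1 drive entry into mitosis, where kinases, kinesin motors and centromere proteins build the spindle, and the spindle checkpoint holds back the anaphase-promoting complex until every chromosome is attached. Glioma cells are known for high levels of these genes, and Mki67 is used in pathology to grade how fast a tumour divides.

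Promoter sequences show what the 2 sets of genes have in common beyond their function. RefSeq windows of GRCm38.p6, from 250 bases before to 50 after an annotated start, were present for 32 of the 39 genes, with 33 windows in all since Mcm7 has 2. That start was the outer end of the gene's RefSeq span in 20 of the 33 windows, lay within 100 bases of it in 28, and was as much as 845 bases inside the span in the others, so a window need not hold the gene's main promoter. The genes without one were Ccna2, Aurkb, Kif20a, Tpx2, Mcm4, Gins2 and Ccne2. The windows were searched on both strands for TTTGAA, known as the cell cycle homology region (CHR) of genes that peak in mitosis, for the CCAAT box CCAAT, and for the E2F-type words TTTCCCGC, TTTCGCGC, TTTGCCGC and TTTGGCGC. Both CHR and CCAAT box were in 13 of 18 mitosis windows (72.2%) and in 2 of 15 replication windows (13.3%), against 4.89% of 13877 windows of tested genes and 6.95% of all 32851 windows. An E2F-type word was in 1 of 18 mitosis windows (5.56%) and in 6 of 15 replication windows (40%), against 3.65% of windows of tested genes and 2.26% of all windows. With or without the other word, CHR was in 12% and the CCAAT box in 37.4% of windows of tested genes (17.9% and 37.4% of all windows). CHR was in 13 of 18 mitosis windows (72.2%) and 2 of 15 replication windows (13.3%). The CCAAT box was frequent in both sets, in 16 of 18 mitosis windows (88.9%) and 10 of 15 replication windows (66.7%). A match is a run of letters and not a measured binding site.

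The windows of 4 mitosis genes and 1 replication gene are printed because they hold these words near an annotated start of genes whose levels follow. Each is written in the gene's own direction, and the last 50 bases lie downstream of that window's start, which is 71 bases inside the gene's span for Mki67, 10 bases inside it for Top2a and at its outer end for Cdk1, Plk1 and Mcm6. Capitals mark TTTGAA and CCAAT, or their reverse complements TTCAAA and ATTGG, in the mitosis genes, and E2F-type words or their reverse complements in Mcm6. The window of Mki67 (chr7:135716330-135716629, minus strand) held 2 CHR and 3 CCAAT words, that of Top2a (chr11:99024140-99024439, minus strand) 2 and 6, that of Cdk1 (chr10:69352863-69353162, minus strand) 2 and 3, and that of Plk1 (chr7:122159185-122159484, plus strand) 1 and 1. Cdk1 also held 1 E2F-type word, left in lower case. The window of Mcm6 (chr1:128359656-128359955, minus strand) held 3 E2F-type words, the first 2 of which overlap, and 2 CCAAT words left in lower case.
Mki67: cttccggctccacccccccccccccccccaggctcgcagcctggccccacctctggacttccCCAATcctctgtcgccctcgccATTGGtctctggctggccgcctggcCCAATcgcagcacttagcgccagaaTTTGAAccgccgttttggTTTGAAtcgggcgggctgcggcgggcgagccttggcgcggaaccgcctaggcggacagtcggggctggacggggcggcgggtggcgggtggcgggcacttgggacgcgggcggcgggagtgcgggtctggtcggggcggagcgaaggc
Top2a: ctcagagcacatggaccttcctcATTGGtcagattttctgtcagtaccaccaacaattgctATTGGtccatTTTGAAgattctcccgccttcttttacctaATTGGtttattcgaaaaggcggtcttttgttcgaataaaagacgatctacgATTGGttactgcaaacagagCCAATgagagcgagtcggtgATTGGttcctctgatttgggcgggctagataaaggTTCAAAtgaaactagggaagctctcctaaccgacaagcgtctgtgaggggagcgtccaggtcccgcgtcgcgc
Cdk1: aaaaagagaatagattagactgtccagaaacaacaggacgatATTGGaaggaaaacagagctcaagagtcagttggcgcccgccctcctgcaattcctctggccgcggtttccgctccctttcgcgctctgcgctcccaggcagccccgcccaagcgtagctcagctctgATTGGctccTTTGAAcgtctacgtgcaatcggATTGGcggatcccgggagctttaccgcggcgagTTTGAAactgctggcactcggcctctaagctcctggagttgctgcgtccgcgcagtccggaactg
Plk1: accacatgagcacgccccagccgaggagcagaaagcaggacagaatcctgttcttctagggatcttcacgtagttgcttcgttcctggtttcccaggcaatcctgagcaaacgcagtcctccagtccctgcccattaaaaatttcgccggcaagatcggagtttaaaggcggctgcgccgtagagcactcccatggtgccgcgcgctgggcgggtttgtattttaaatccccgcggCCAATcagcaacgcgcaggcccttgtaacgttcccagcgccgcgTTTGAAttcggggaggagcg
Mcm6: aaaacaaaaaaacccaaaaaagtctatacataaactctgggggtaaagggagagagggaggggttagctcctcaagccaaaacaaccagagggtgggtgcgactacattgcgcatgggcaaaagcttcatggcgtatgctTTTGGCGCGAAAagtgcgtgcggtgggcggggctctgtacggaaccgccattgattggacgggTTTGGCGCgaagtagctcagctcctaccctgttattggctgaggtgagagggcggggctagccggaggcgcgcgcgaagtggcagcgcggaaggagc

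All 39 genes were expressed in all 9 libraries, from 10.8 TPM for Cenpf in ThTC 3 to 491 TPM for Ube2c in sECM only 3. Together they summed to 4243, 3785 and 3271 TPM in ThTC libraries 1, 2 and 3, to 4299, 4128 and 3804 TPM in GFP-TC libraries and to 4067, 4305 and 4454 TPM in sECM only libraries. One library, ThTC 3, lay below the other 8. ThTC 2 lay just under GFP-TC 3, the lowest library of the other groups, and ThTC 1 lay among those groups. ThTC 3 had the lowest value of all 9 libraries for 33 of the 39 genes, 20 of 22 in mitosis and 13 of 17 in replication. The other lowest values were in GFP-TC 2 for 3 genes, GFP-TC 3 for 2 and sECM only 3 for 1. The highest value was in sECM only 3 for 14 genes, GFP-TC 1 for 8, GFP-TC 2 for 7, ThTC 1 and sECM only 2 for 4 each, and ThTC 2 and GFP-TC 3 for 1 each.

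The spread was small. The highest library exceeded the lowest 1.29-fold for Tyms, which makes thymidine nucleotides, and 1.84-fold for Cenpf, a kinetochore protein, the ends of the range over the 39 genes. The median of this ratio was 1.46, 23 genes were under 1.5 and 0 reached 2. Over 9372 genes with a mean between 10 and 500 TPM the median was 1.496. The heat map of centred levels shows the low column of ThTC 3 across both sets of genes.

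**Figure D1:**
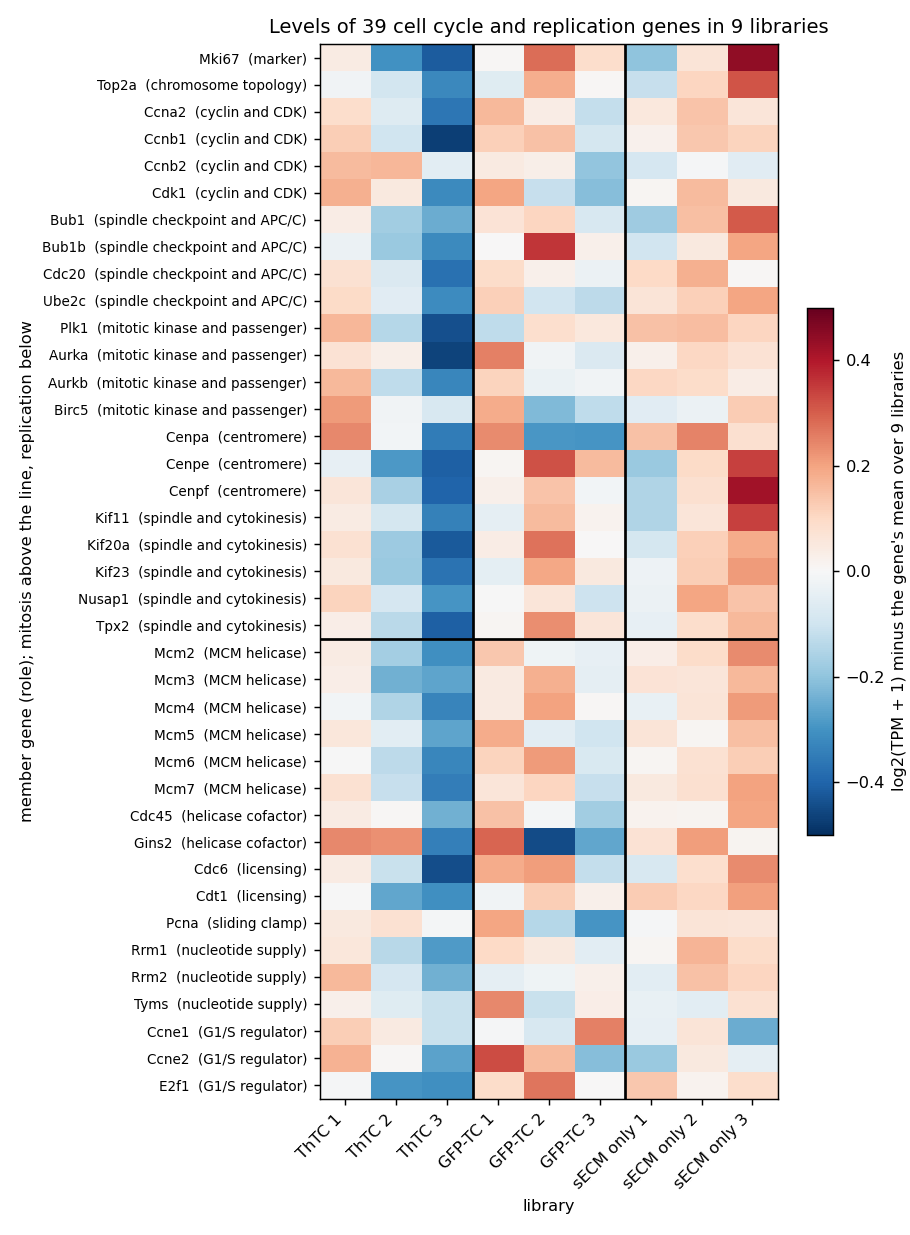
Levels of the 39 genes (rows, by role, mitosis above the line and replication below it) in the 9 libraries (columns), as log2(TPM + 1) minus the gene's mean over the 9 libraries, with red above and blue below that mean. ThTC 3 is the lowest library for 33 of the 39 genes.

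ThTC 3 and GFP-TC 3, the lowest library of their group for both gene sets, had the highest values of brain cell genes. On the centred log2 scale, where 0 is a gene's mean over the 9 libraries, the mitosis genes averaged 0.09, -0.10 and -0.34 in ThTC libraries 1, 2 and 3, 0.06, 0.08 and -0.05 in GFP-TC libraries, and -0.03, 0.11 and 0.18 in sECM only libraries. The replication genes averaged 0.06, -0.09 and -0.26 in ThTC libraries, 0.12, 0.04 and -0.07 in GFP-TC libraries and 0.01, 0.07 and 0.11 in sECM only libraries. In each group of cells, ThTC and GFP-TC, library 1 lay above library 3 in both sets.
The 10 neuron genes averaged -1.22, -0.24 and 2.04 in ThTC libraries, -1.72, 0.17 and 1.77 in GFP-TC libraries and 0.10, -0.56 and -0.33 in sECM only libraries. Lists of 8 oligodendrocyte and 8 astrocyte genes were likewise highest in ThTC 3 (2.06 and 1.37) and next in GFP-TC 3 (1.76 and 1.16), and 0 of the genes of these lists were at 0 in a library. The summed oligodendrocyte genes spanned 163 to 2468 TPM in ThTC libraries, 182 to 2032 TPM in GFP-TC libraries and 328 to 726 TPM in sECM only libraries, and the astrocyte genes 432 to 1558, 255 to 1336 and 457 to 733 TPM in the same 3 groups. With the brain cell level as a covariate in the model, 33 genes had a negative log2 fold change for ThTC over GFP-TC and 33 for ThTC over sECM only, with medians of -0.14 and -0.18, against 33 and 35 genes without this term. The medians of all tested genes with this term were -0.12 and -0.06. The 10 macrophage and microglia genes averaged 0.09, 0.59 and 0.70 in ThTC libraries, -1.09, -0.15 and 0.26 in GFP-TC libraries and 0.04, -0.32 and -0.11 in sECM only libraries, and 7 T cell genes summed to 83.6 to 95.0 TPM in ThTC libraries, 7.53 to 75.6 TPM in GFP-TC libraries and 22.2 to 82.7 TPM in sECM only libraries. The part of these immune cell levels in the results was not tested.

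**Figure D2:**
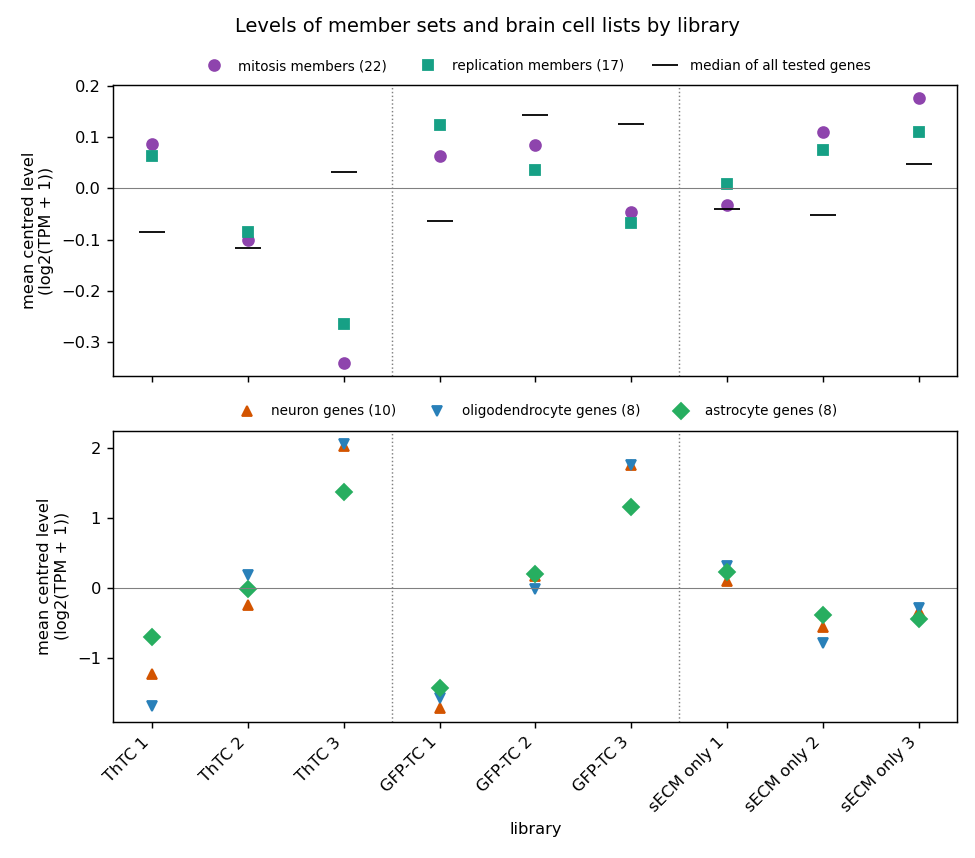
Mean centred log2(TPM + 1) of the 22 mitosis and 17 replication genes, with the median of all tested genes as a dash (upper panel), and of the lists of 10 neuron, 8 oligodendrocyte and 8 astrocyte genes (lower panel, wider scale), by library. ThTC 3 is lowest for both gene sets, at -0.34 and -0.26, while the brain cell lists are high in both ThTC 3 and GFP-TC 3.

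Among the mitosis genes, the proliferation marker Mki67 and the topoisomerase Top2a, which untangles the copied DNA, had their lowest group mean with ThTC. Mki67 (chromosome 7, 135689784 to 135716450, GRCm38.p6) was at 48.9, 38.4 and 35.4 TPM in ThTC libraries, at 47.7, 57.8 and 50.5 TPM in GFP-TC libraries and at 41.1, 49.8 and 64.9 TPM in sECM only libraries. ThTC 2 and ThTC 3 lay below all 6 other libraries, while ThTC 1 lay within the other groups, and sECM only 1 was near ThTC 2. The mean was 40.9 ± 7.09 TPM over ThTC libraries, 52.02 ± 5.21 TPM over GFP-TC libraries and 51.9 ± 12.02 TPM over sECM only libraries (SD, n = 3 each). Top2a was at 163, 154 and 132 TPM in ThTC libraries, 158, 187 and 165 TPM in GFP-TC libraries and 152, 178 and 205 TPM in sECM only libraries, and only ThTC 3 lay clear of the other groups.

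The cyclins and the mitotic kinase were likewise lowest in ThTC 3, apart from Ccnb2. Cdk1, the kinase that drives entry into mitosis, was at 90.9, 83.2 and 64.2 TPM under ThTC, 92.3, 74.2 and 69.2 TPM under GFP-TC and 80.8, 89.8 and 83.2 TPM under sECM only. Its means, 79.5 ± 13.7 TPM over ThTC libraries, 78.6 ± 12.2 TPM over GFP-TC libraries and 84.6 ± 4.63 TPM over sECM only libraries (SD, n = 3 each), were closer than the libraries within a group. Its partner Ccnb1 was at 123, 105 and 81.3 TPM under ThTC, 123, 125 and 106 TPM under GFP-TC and 115, 124 and 122 TPM under sECM only, with ThTC 3 the lowest of the 9. The second B-type cyclin, Ccnb2, and Ccna2, the cyclin of S phase and early mitosis, lay between 31.2 and 40.5 TPM and between 190.01 and 274 TPM over the 9 libraries. Ccnb2 had its 2 highest values in ThTC 2 and ThTC 1, at 40.5 and 40.3 TPM.

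The spindle checkpoint kinases Bub1 and Bub1b and the anaphase-promoting complex genes Cdc20 and Ube2c keep and release the hold on chromosome separation. Bub1b was at 54.3, 48.6 and 44.2 TPM in ThTC libraries, at 55.6, 71.3 and 56.4 TPM in GFP-TC libraries and at 51.8, 57.4 and 63.8 TPM in sECM only libraries. Every ThTC library lay below every GFP-TC library, while ThTC and sECM only overlapped. Cdc20, the activator of the complex, was at 69.9, 62.9 and 50.97 TPM under ThTC, 70.6, 67.4 and 64.9 TPM under GFP-TC and 70.98, 75.1 and 66.4 TPM under sECM only. Ube2c, the complex's ubiquitin-conjugating enzyme and the most abundant of the 22 mitosis genes, was at 458, 412 and 344 TPM under ThTC, 466, 401 and 391 TPM under GFP-TC and 448, 465 and 491 TPM under sECM only. Both overlapped between all groups, and Bub1 lay between 27.7 and 41.2 TPM over the 9 libraries.

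Of the mitotic kinases, Plk1 was at 153, 124 and 100.4 TPM in ThTC libraries, 125, 145 and 142 TPM in GFP-TC libraries and 152, 152 and 147 TPM in sECM only libraries. Its highest value, in ThTC 1, and its lowest, in ThTC 3, fell in the same group, and all 3 GFP-TC libraries lay under all 3 sECM only libraries. Aurkb, the kinase of the chromosomal passenger complex that corrects spindle attachments, was at 102, 83.5 and 72.6 TPM under ThTC, 98.8, 89.3 and 90.2 TPM under GFP-TC and 98.1, 97.5 and 93.8 TPM under sECM only. Birc5, the survivin subunit of that complex, was at 147, 125 and 119 TPM under ThTC, 144, 108 and 116 TPM under GFP-TC and 121, 124 and 138 TPM under sECM only. For Birc5 the lowest library was GFP-TC 2 and the highest ThTC 1. The centrosome kinase Aurka lay between 55.8 and 92.1 TPM.

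Centromere and spindle genes included the mitosis gene with the lowest ThTC values relative to GFP-TC. Cenpe, a kinesin motor that brings chromosomes to the spindle equator, was at 29.5, 24.7 and 22.6 TPM in ThTC libraries, at 30.6, 38.1 and 34.1 TPM in GFP-TC libraries and at 26.6, 32.6 and 38.8 TPM in sECM only libraries. All ThTC values lay below all GFP-TC values, and ThTC 1 lay above sECM only 1. Cenpa, the histone H3 variant that marks the centromere, had a different order, with 137, 115 and 90.8 TPM under ThTC, 137, 94.7 and 94.3 TPM under GFP-TC and 129, 138 and 123 TPM under sECM only. Library 1 was high in both groups that received cells, and ThTC 3, GFP-TC 2 and GFP-TC 3 were the 3 lowest.
The cytokinesis motor Kif23 was at 79.7, 67.8 and 59.6 TPM under ThTC, 74.5, 88.4 and 79.7 TPM under GFP-TC and 75.8, 84.1 and 89.6 TPM under sECM only. Tpx2, which nucleates spindle microtubules and activates Aurka, was at 101, 90.2 and 74.4 TPM under ThTC, 99.8, 117 and 104 TPM under GFP-TC and 96.4, 105 and 111 TPM under sECM only. Nusap1, a microtubule-bundling protein, was at 44.97, 39.2 and 33.6 TPM under ThTC, 41.5, 43.4 and 38.6 TPM under GFP-TC and 40.6, 47.8 and 46.00 TPM under sECM only. For all 3 genes ThTC 3 was the lowest library and ThTC 1 lay among the other groups. The spindle motor Kif11 lay between 45.8 and 73.9 TPM, the cytokinesis motor Kif20a between 41.0 and 66.9 TPM, and Cenpf between 10.8 and 19.8 TPM.

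**Figure D3:**
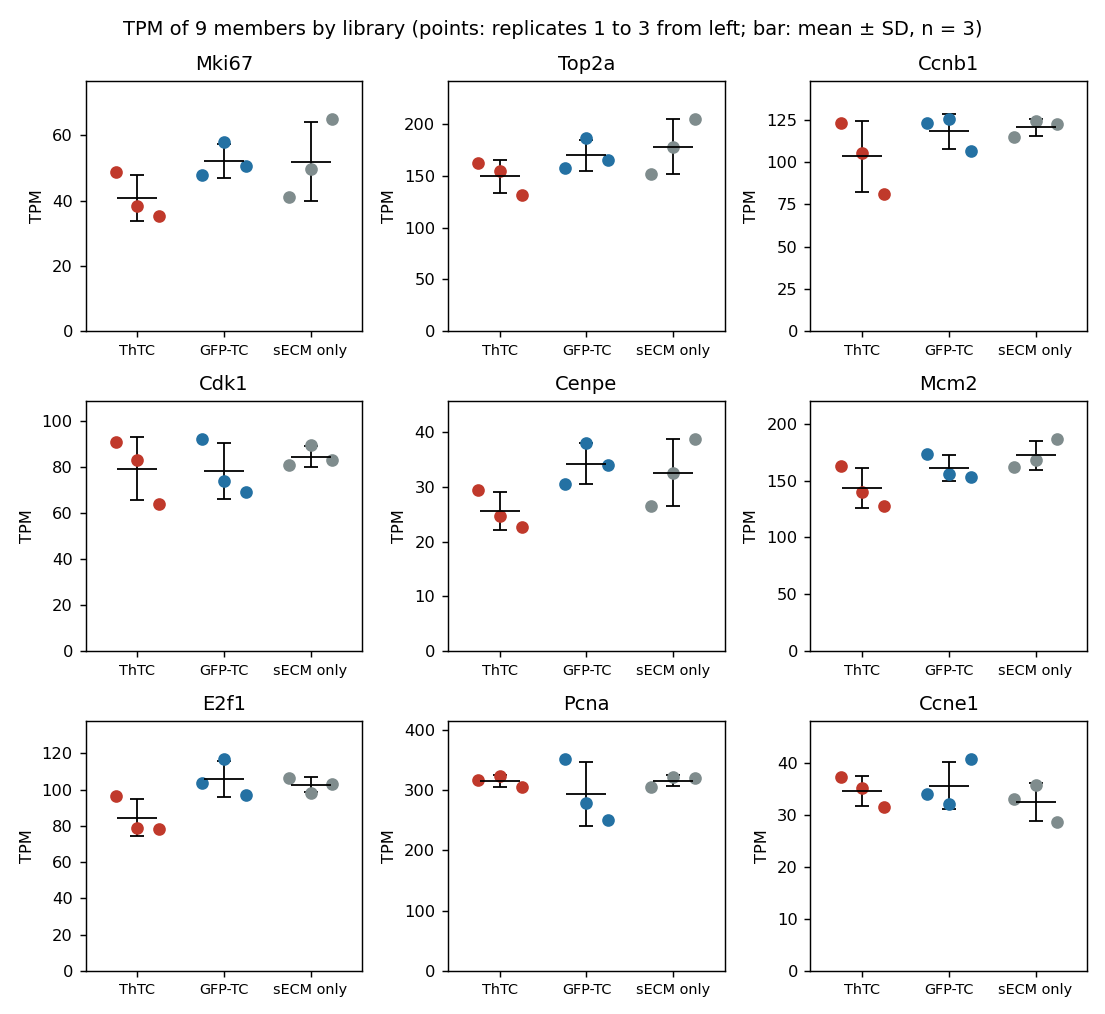
TPM (linear axis from 0) of Mki67, Top2a, Ccnb1, Cdk1, Cenpe, Mcm2, E2f1, Pcna and Ccne1 in each library, with the group mean and SD (n = 3) as bars. E2f1 has all 3 ThTC libraries, at 78.2 to 96.4 TPM, below all others, the nearest of which is GFP-TC 3 at 97.2 TPM. Cdk1, Pcna and Ccne1 have overlapping groups.

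Among the replication genes, the 6 subunits of the MCM helicase were each lowest in ThTC 3. Mcm2 (chromosome 6, 88883474 to 88898780, GRCm38.p6) was at 163, 140.2 and 128 TPM in ThTC libraries, 174, 156 and 153 TPM in GFP-TC libraries and 162, 168 and 187 TPM in sECM only libraries. Mcm6 was at 151, 138 and 120.4 TPM in ThTC libraries, 163, 175 and 143 TPM in GFP-TC libraries and 152, 159 and 164 TPM in sECM only libraries. For Mcm6 all 3 ThTC libraries lay below all 3 sECM only libraries, with ThTC 1 close under sECM only 1, and ThTC and GFP-TC overlapped.
Mcm3 was at 121, 99.8 and 98.3 TPM under ThTC, 122, 134 and 115 TPM under GFP-TC and 124, 123 and 132 TPM under sECM only, and its ThTC libraries lay below its sECM only libraries. Mcm4 was at 96.8, 87.96 and 77.5 TPM under ThTC, 101, 112 and 98.04 TPM under GFP-TC and 95.3, 102 and 113 TPM under sECM only, and its ThTC libraries lay below its GFP-TC libraries. Mcm5 and Mcm7 lay between 136 and 186 TPM and between 138 and 202 TPM.

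The helicase cofactors and the licensing factors differed from each other. Cdc45, which joins the helicase when it is switched on, was at 56.7, 55.3 and 46.5 TPM under ThTC, 61.05, 54.7 and 48.7 TPM under GFP-TC and 55.8, 55.7 and 63.3 TPM under sECM only, with overlap throughout. Gins2, a subunit of the GINS complex, was at 58.3, 57.9 and 38.7 TPM under ThTC, 60.5, 35.9 and 40.97 TPM under GFP-TC and 51.8, 57.2 and 49.8 TPM under sECM only. Its lowest values were in GFP-TC 2, ThTC 3 and GFP-TC 3, as for Cenpa.
Cdt1 (chromosome 8, 122568015 to 122573130, GRCm38.p6), which loads the helicase together with Cdc6, was at 112, 93.6 and 90.6 TPM in ThTC libraries, at 111, 122 and 114 TPM in GFP-TC libraries and at 123, 121 and 129.8 TPM in sECM only libraries. All ThTC values lay below all sECM only values, and ThTC 1 lay just above GFP-TC 1. Cdc6 was at 33.6, 30.2 and 23.7 TPM under ThTC, 37.2, 37.9 and 29.9 TPM under GFP-TC and 30.9, 34.6 and 38.6 TPM under sECM only, and the groups overlapped.

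The sliding clamp gene had nearly the same mean in ThTC and sECM only libraries. Pcna (chromosome 2, 132249286 to 132253180, GRCm38.p6) was at 317, 324 and 305 TPM under ThTC, 352, 278 and 249.9 TPM under GFP-TC and 306, 321 and 320.4 TPM under sECM only. Its mean was 315 ± 9.56 TPM over ThTC libraries, 293 ± 52.8 TPM over GFP-TC libraries and 316 ± 8.74 TPM over sECM only libraries (SD, n = 3 each), and both its extremes fell within GFP-TC. Rrm2, the regulated subunit of ribonucleotide reductase, was at 153, 129 and 116 TPM under ThTC, 132, 135 and 139 TPM under GFP-TC and 132, 151 and 148 TPM under sECM only. The large subunit Rrm1 lay between 73.7 and 101 TPM and Tyms between 25.4 and 32.6 TPM.

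Among the regulators of the step into S phase, the ThTC libraries lay narrowly below the others for E2f1 and overlapped them for the cyclin E genes. E2f1 (chromosome 2, 154559400 to 154569892, GRCm38.p6), a transcription factor that activates replication genes, was at 96.4, 78.7 and 78.2 TPM in ThTC libraries, at 103, 117 and 97.2 TPM in GFP-TC libraries and at 107, 98.2 and 103 TPM in sECM only libraries. It was the one gene of the 39 whose ThTC libraries all lay below every library of both other groups, a pattern met by 7.58% of all tested genes. That count of 1 of 39 does not stand above this share, and ThTC 1 lay close under GFP-TC 3. The cyclin E gene Ccne1 was at 37.1, 35.1 and 31.4 TPM under ThTC, 33.9, 32.1 and 40.7 TPM under GFP-TC and 33.1, 35.7 and 28.5 TPM under sECM only, with its lowest value in sECM only 3. The second cyclin E gene, Ccne2, was at 17.5, 15.5 and 12.6 TPM under ThTC, 19.6, 17.3 and 13.2 TPM under GFP-TC and 13.4, 15.98 and 14.9 TPM under sECM only. Both cyclin E genes overlapped between all groups.

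Between ThTC and GFP-TC, most of the 39 genes had a slightly lower mean with ThTC and no difference passed the test. The log2 fold change of ThTC over GFP-TC was below 0 for 33 of 39 genes, 18 of 22 in mitosis and 15 of 17 in replication, while it was below 0 for 66.2% of all tested genes. The 6 above 0, beside 33.8% of all tested genes, were Ccnb2, Cdk1, Birc5, Cenpa, Gins2 and Pcna. The median was -0.17 for mitosis genes, -0.15 for replication genes and -0.10 for all tested genes, and the 39 values spanned -0.41 for Cenpe to 0.18 for Gins2.
limma, with Benjamini-Hochberg adjustment over 13829 genes, called 0 of the 39 genes and 0% of all genes at an adjusted p under 0.05. An unadjusted p under 0.05 was reached by 5 genes lower with ThTC, Bub1b, Cenpe, Mcm4, Cdt1 and E2f1, against 12.9% of all tested genes, and 0 higher, against 2.03%. ThTC and GFP-TC libraries did not overlap, with ThTC the lower, for 4 genes, Bub1b, Cenpe, Mcm4 and E2f1, against 16.9% of all tested genes, and with ThTC the higher for 0, against 2.2%. The counts of 5 and 4 of 39 do not stand above those shares of all genes.

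Cenpe had a log2 fold change of -0.41 (SE 0.16) and limma's adjusted p was 0.317, with lower values in 3 of 3 ThTC libraries. For E2f1 it was -0.32 (SE 0.11) (limma adjusted p = 0.316), for Bub1b -0.31 (SE 0.13) (limma adjusted p = 0.329) and for Tpx2 -0.27 (SE 0.12) (limma adjusted p = 0.339). For Mcm4 it was -0.25 (SE 0.11) and for Cdt1 -0.24 (SE 0.093) (limma adjusted p = 0.331 and 0.319). Mki67 and Mcm2, both used as markers of dividing cells, had -0.35 (SE 0.18) and -0.17 (SE 0.11) (limma adjusted p = 0.378 and 0.450). Pcna, Cdk1 and Birc5 were among the 6 genes above 0, while 33 lay below it. Scaling mattered here: with median-of-ratios scaling the median of all genes became 0.02, a shift of 0.12, and 24 of the 39 genes stayed below 0, with a median of -0.03 in mitosis and -0.01 in replication. Over all genes at an unadjusted p under 0.05, 1784 were lower and 281 higher with ThTC on the deposited scale, against 515 lower and 774 higher with that scaling.
The count of 5 genes at an unadjusted p under 0.05 became 0 without ThTC 3, 0 without ThTC 2, 0 without GFP-TC 2 and 16 without ThTC 1, and 3 without sECM only 2. Of all tested genes, 1519 of 13677, 674 of 13791, 594 of 13731, 1736 of 13806 and 1374 of 13803 were lower at that p in those fits, in the same order. Those higher were 159, 102, 174, 386 and 241. The count among the 39 genes was 0 with median-of-ratios scaling, 0 with quantile scaling and 10 with the brain tissue covariate, fits in which 515, 721 and 2630 of all 13829 genes were lower at that p. Without ThTC 3, 27 of the 39 genes were below 0 and the medians were -0.04 in mitosis and -0.07 in replication (-0.17 and -0.15 with it). The median of all tested genes was -0.18 without ThTC 3 (-0.10 with it). Both sets thus lay above that median without this library and below it with it.

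**Figure D4:**
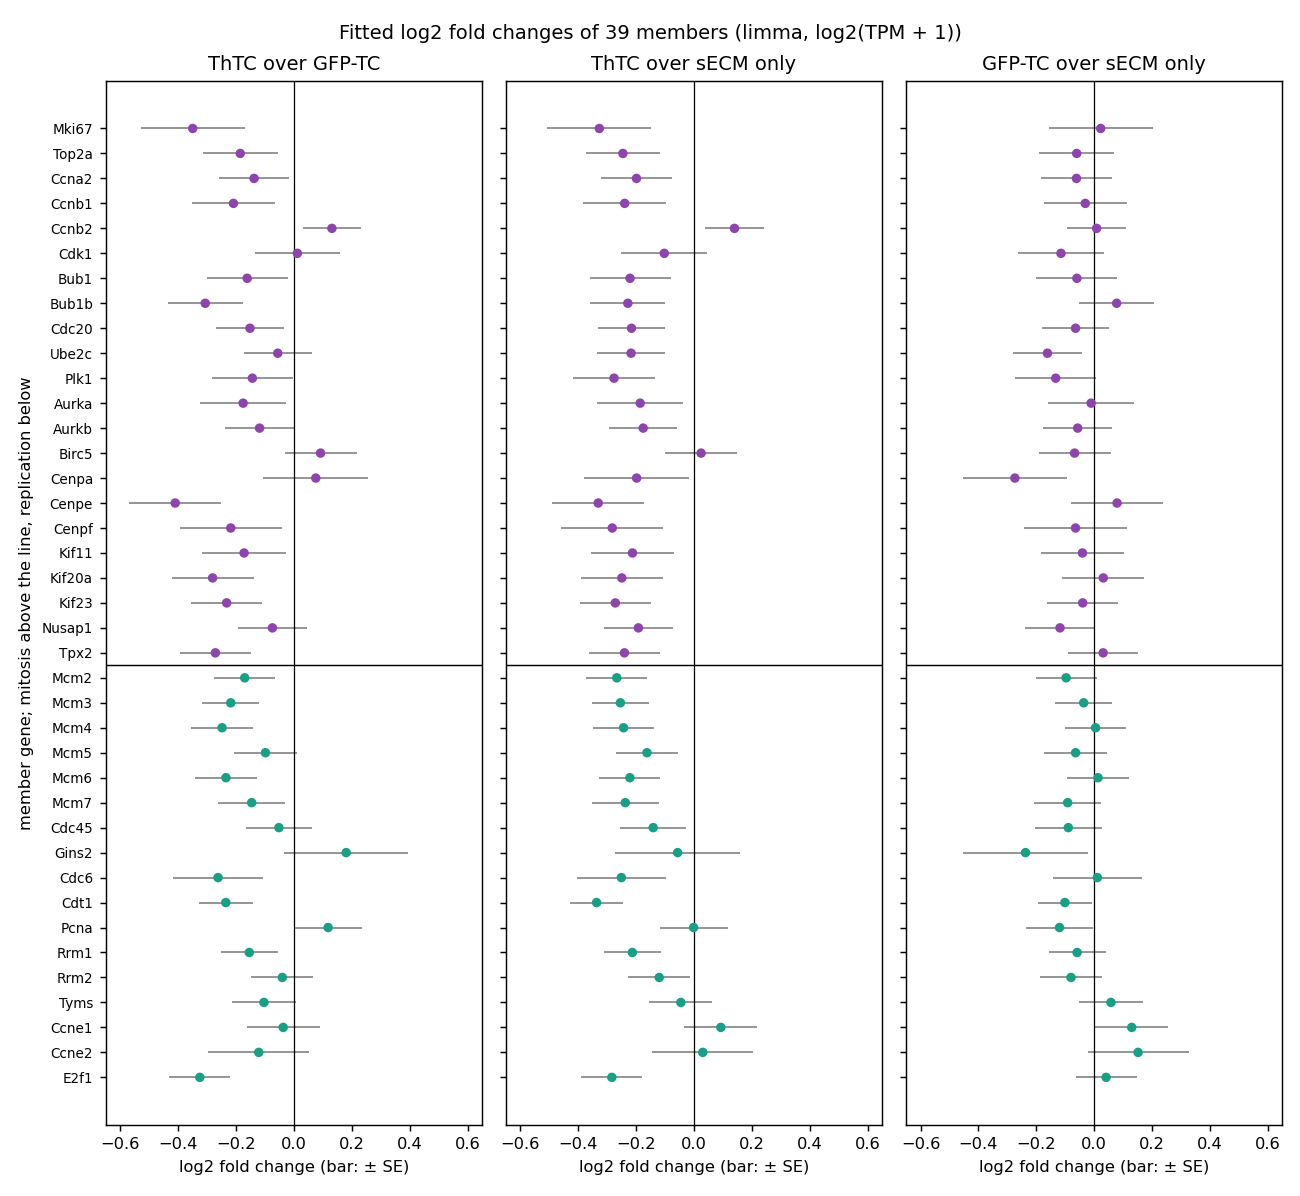
Log2 fold changes (points) with SE (bars) of the 39 genes from limma on log2(TPM + 1), for ThTC over GFP-TC, ThTC over sECM only and GFP-TC over sECM only, mitosis above the line and replication below it. Points lie left of 0 for 33, 35 and 26 of the 39 genes, and the 39 values for ThTC over GFP-TC span -0.41 to 0.18.

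Between ThTC and sECM only, most of the genes again had a lower mean with ThTC, no difference passed the test, and the genes with the smallest p were replication genes. The log2 fold change of ThTC over sECM only was below 0 for 35 of 39 genes, 20 of 22 in mitosis and 15 of 17 in replication, and for 55.6% of all tested genes. Ccnb2, Birc5, Ccne1 and Ccne2 lay above 0, as did 44.4% of all tested genes. The median was -0.22 for mitosis genes, -0.21 for replication genes and -0.03 for all tested genes, and the 39 values spanned -0.34 for Cdt1 to 0.14 for Ccnb2. This comparison and the one above share the ThTC libraries.
limma called 0 of the 39 genes and 0% of all genes at an adjusted p under 0.05. An unadjusted p under 0.05 was reached by 5 genes lower with ThTC, Mcm2, Mcm3, Mcm4, Cdt1 and E2f1, against 5.36% of all tested genes, and 0 higher, against 1.54%. All 5 act in replication and 0 of the 22 mitosis genes were among them. This split lies close to the threshold: limma's unadjusted p was 0.0493 for Mcm4, 0.0540 for Kif23 and 0.0696 for Cenpe. The medians of the 2 sets were alike. All ThTC libraries lay below all sECM only libraries for 4 genes, Mcm3, Mcm6, Cdt1 and E2f1, against 12.1% of all tested genes, and above them for 0, against 5.03%. With median-of-ratios scaling and with quantile scaling 1 of the 39 genes reached an unadjusted p under 0.05, and with the brain tissue covariate 8 did. Of all 13829 genes, 475, 521 and 1034 were lower at that p in these 3 fits.

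Cdt1 had a log2 fold change of -0.34 (SE 0.093) (limma adjusted p = 0.687), with 3 of 3 ThTC libraries below the sECM only libraries. For E2f1 it was -0.28 (SE 0.11), for Mcm2 -0.27 (SE 0.11) and for Mcm3 -0.25 (SE 0.099) (limma adjusted p = 0.687 for each). Among mitosis genes the smallest p belonged to Kif23, Cenpe and Tpx2, with log2 fold changes of -0.27 (SE 0.12), -0.33 (SE 0.16) and -0.24 (SE 0.12) (limma adjusted p = 0.687 for each). Mki67 had -0.33 (SE 0.18) (limma adjusted p = 0.687). The count of 5 genes at an unadjusted p under 0.05 became 21 without ThTC 1 and 8 without sECM only 1, and 1 without ThTC 2, without ThTC 3 or without sECM only 3, and 2 without sECM only 2. Of all tested genes, 1112 of 13806 were lower at that p without ThTC 1, 804 of 13776 without sECM only 1 and 260 of 13791 without ThTC 2. It was 436 of 13677 without ThTC 3, 245 of 13781 without sECM only 3 and 442 of 13803 without sECM only 2. Those higher were 478, 173, 71, 97, 146 and 83 in the same order. Without ThTC 3 the medians were -0.11 in both sets, with 32 of the 39 genes below 0. The median of all tested genes in that fit was -0.10, close to both sets (-0.03 with ThTC 3).

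The comparison of GFP-TC with sECM only shares its libraries with the others. The log2 fold change of GFP-TC over sECM only was below 0 for 26 of 39 genes, 16 of 22 in mitosis and 10 of 17 in replication, whereas 28.2% of all tested genes were below 0. The median was -0.06 for mitosis genes, -0.06 for replication genes and 0.08 for all tested genes. limma called 0 of the 39 genes and 0% of all genes at an adjusted p under 0.05, and 0 of the 39 had an unadjusted p under 0.05, against 0.434% of all tested genes lower and 0.499% higher. GFP-TC libraries all lay below sECM only libraries for 1 gene, Plk1, against 1.08% of all tested genes, and above them for 0, against 3.15%.
The mitosis genes with the smallest p were Cenpa, Ube2c and Nusap1, with log2 fold changes of -0.27 (SE 0.18), -0.16 (SE 0.12) and -0.12 (SE 0.12) (limma adjusted p = 0.997 for each). In replication they were Gins2, Cdt1 and Ccne1, with -0.24 (SE 0.21), -0.10 (SE 0.093) and 0.13 (SE 0.13) (limma adjusted p = 0.997 for each). With median-of-ratios scaling 37 of the 39 genes were below 0, with a median of -0.15 over the list and -0.01 over all genes, so the size of this difference beside that of ThTC over GFP-TC depends on the scaling. The SE of these values, 0.09 to 0.21 on the log2 scale, sets the size that could have been seen. Without GFP-TC 1, 3 of the 39 genes had an unadjusted p under 0.05, while 337 of all 13808 tested genes were lower and 977 higher at that p. Without sECM only 3 the median in mitosis was -0.0023 (0.12 over all genes), and without GFP-TC 3 that in replication was -0.0091 (0.03 over all genes).

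Mitosis and replication genes kept nearly the same proportion in every library. The mean centred level of mitosis genes minus that of replication genes was 0.02, -0.02 and -0.08 in ThTC libraries, -0.06, 0.05 and 0.02 in GFP-TC libraries and -0.04, 0.04 and 0.07 in sECM only libraries, on the log2 scale. Group means were -0.02 ± 0.05 with ThTC, 0.0029 ± 0.06 with GFP-TC and 0.02 ± 0.06 with sECM only (SD, n = 3 each), so the groups differed by less than the libraries within them. The 2 sets summed to 1731 and 1540 TPM in ThTC 3, and to 2453 and 2002 TPM in sECM only 3.

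Genes of the same pathways outside the list were taken from wider lists of 46 mitosis genes, 42 replication genes, 12 genes of G1 entry and 20 brakes on the cycle, all of them tested, and limma called 0 of them in any comparison at an adjusted p under 0.05. For ThTC over GFP-TC, 42 of 46 mitosis, 34 of 42 replication, 11 of 12 G1 entry and 15 of 20 brake genes had a log2 fold change below 0, with medians of -0.20, -0.18, -0.16 and -0.097 beside -0.10 for all genes, of which 66.2% were below 0. At an unadjusted p under 0.05, 5, 11, 2 and 4 of them were lower, against 12.9% of all tested genes. For ThTC over sECM only, 45, 39, 9 and 12 of the same lists were below 0, with medians of -0.19, -0.18, -0.16 and -0.067 beside -0.03 for all genes, of which 55.6% were below 0. An unadjusted p under 0.05 was reached by 4, 3, 0 and 2 of them that were lower, against 5.36% of all tested genes. For GFP-TC over sECM only the 4 medians were -0.018, 0.016, 0.063 and 0.068, and 0 of these genes had an unadjusted p under 0.05.

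Chaf1a, a subunit of the chromatin assembly factor that follows the replication fork, was at 44.9, 40.3 and 38.6 TPM in ThTC libraries, 55.3, 62.7 and 50.4 TPM in GFP-TC libraries and 50.5, 54.7 and 56.02 TPM in sECM only libraries. All ThTC libraries lay below all others. Its log2 fold change was -0.43 (SE 0.10) over GFP-TC and -0.37 (SE 0.10) over sECM only (limma adjusted p = 0.316 and 0.687). E2f8, a repressor of the E2F family, was at 48.8, 35.03 and 36.9 TPM under ThTC, 50.8, 64.3 and 56.6 TPM under GFP-TC and 46.7, 52.6 and 55.1 TPM under sECM only. Uhrf1, which carries DNA methylation over to new strands, had a log2 fold change of -0.31 (SE 0.10) for ThTC over GFP-TC (limma adjusted p = 0.316).
Foxm1, the transcription factor that switches on many mitosis genes, was at 178, 140.4 and 137 TPM in ThTC libraries, at 173, 243 and 201 TPM in GFP-TC libraries and at 177, 167 and 206 TPM in sECM only libraries, and ThTC 1 lay above GFP-TC 1, sECM only 1 and sECM only 2. Its log2 fold change was -0.43 (SE 0.15) over GFP-TC (limma adjusted p = 0.316). Kif18b, a spindle kinesin, had -0.33 (SE 0.11) over GFP-TC and -0.41 (SE 0.11) over sECM only, and the condensin gene Ncapd2 had -0.36 (SE 0.14) and -0.37 (SE 0.14) (limma adjusted p = 0.316 over GFP-TC and 0.687 over sECM only for both genes).

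Of the G1 entry genes, cyclin D1, encoded by Ccnd1, was at 681, 606 and 608 TPM in ThTC libraries, 670.4, 824 and 649 TPM in GFP-TC libraries and 692, 648 and 704 TPM in sECM only libraries, above each of the 39 genes in every library. For ThTC over GFP-TC, E2f3 had a log2 fold change of -0.38 (SE 0.13), Cdk2, the kinase partner of cyclin E, -0.28 (SE 0.11) and Myc -0.27 (SE 0.15) (limma adjusted p = 0.316, 0.316 and 0.398). Of the brakes, Cdkn1a, the p21 inhibitor of cyclin-dependent kinases, was at 77.4, 90.7 and 96.9 TPM under ThTC, 68.8, 86.7 and 71.8 TPM under GFP-TC and 71.4, 79.4 and 103 TPM under sECM only, and the groups overlapped. Cdkn2a was low, at 9.62, 9.10 and 9.77 TPM under ThTC, 12.4, 10.4 and 6.47 TPM under GFP-TC and 7.99, 8.83 and 8.10 TPM under sECM only. The p53 gene Trp53 was at 418, 347 and 322 TPM under ThTC, 417, 423 and 427 TPM under GFP-TC and 455, 430.4 and 439.9 TPM under sECM only. Its ThTC 2 and ThTC 3 libraries lay below all 6 others, with a log2 fold change of -0.29 (SE 0.098) over sECM only (limma adjusted p = 0.687). E2f4, a repressor of the E2F family in resting cells, and Fzr1, which activates the anaphase-promoting complex in G1, had -0.32 (SE 0.11) and -0.17 (SE 0.062) over GFP-TC (limma adjusted p = 0.316 for both).

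Transcript length moved with part of the spread within the list. The 13 genes with the longest transcripts, 3398 to 11130 bases and among them Mki67, Cenpe and Cenpf, were set against the 13 with the shortest, 947 to 2199 bases and among them Birc5, Ube2c, Cenpa and Pcna. The median centred level of the longest minus that of the shortest was -0.083, -0.13 and -0.029 in ThTC libraries, -0.10, 0.20 and 0.076 in GFP-TC libraries and -0.12, -0.0057 and 0.14 in sECM only libraries, on the log2 scale. Over all tested genes of the same lengths it was -0.12, -0.17 and -0.044 in ThTC libraries, -0.082, 0.21 and 0.14 in GFP-TC libraries and -0.053, -0.053 and 0.11 in sECM only libraries. The signs were the same in all 9 libraries. With a length trend removed in each library, 35 of the 39 genes were below 0 for ThTC over GFP-TC and 36 for ThTC over sECM only, with medians of -0.14 and -0.21. The medians of all tested genes with the trend removed were -0.098 and -0.033. That alternative was chosen after the values were seen.

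**Figure D5:**
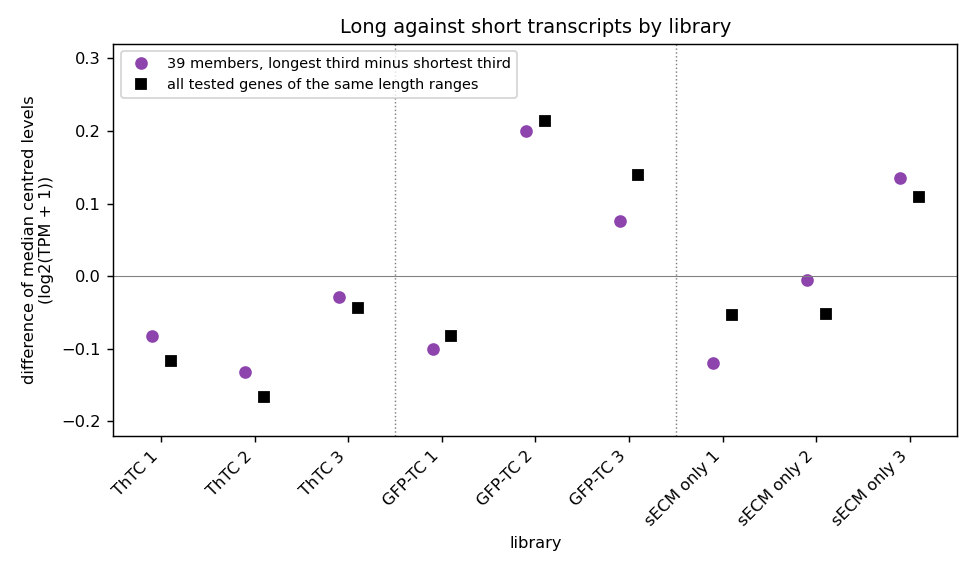
Median centred log2(TPM + 1) of the third of genes with the longest transcripts minus that of the third with the shortest, for the 39 genes (circles) and for all tested genes of the same lengths (squares), by library. Circle and square have the same sign in all 9 libraries and are highest in GFP-TC 2, at 0.20 and 0.21.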

How the data were processed

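Tumour tissue RNA of 9 libraries in 3 treatment groups of 3 was sequenced (DNBseq, per the labels' protocols). The authors deposited TPM per gene and library with 2 decimals, per the file headers. The submitters' processing notes name HISAT, GRCm38.p6 and mm10 without versions or roles, while the quantification tool, annotation and filters are not given in the sources used here. A TPM value depends on its library's fixed total, so higher levels of some genes lower all others, and gives no depth, so no counting interval was made. The way reads shared with near-identical copies or overlapping genes were assigned is not given either. RefSeq names pseudogenes of 4 of the listed genes (Ccnb1, Ccnb2, Pcna and Tyms), and 10 overlap a protein-coding gene (Ccna2, Cdc20, Aurka, Kif20a, Nusap1, Mcm7, Cdc45, Gins2, Ccne2 and E2f1), so their values are less certain.

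Values were analysed as log2(TPM + 1), which understates changes of low genes. Genes at 1 TPM or more in at least 3 libraries (13829) entered limma 3.58.1 (R 4.3.3) with an intensity trend and all 9 libraries in 1 fit, and p-values were adjusted by Benjamini-Hochberg over all tested genes of a comparison at a threshold of 0.05. The steps were tested on simulated data with changes larger than any listed gene showed. That test does not tell whether changes as small as those of the listed genes could be called. Gene positions and promoter windows came from RefSeq tables of GRCm38.p6, and transcript lengths from GENCODE M21 (principal isoform where tagged) for 98.3% of tested genes and 39 of 39 listed genes. Python 3.11.15 and matplotlib 3.10.9 were used for figures.

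The listed genes, the wider lists and the tests were chosen with earlier results of these data known, so counts and medians of lists are descriptions and no list was tested. Values per library are given for 18 set genes and, per comparison, for the 3 mitosis and 3 replication genes with the smallest p. Of each wider list, the 3 genes with the smallest p are named, with Cdkn1a, Ccnd1, Cdkn2a and Foxm1. The other genes are given by range. Those named as extremes, as not overlapping or as lying on the other side of 0 were named after their values were seen.

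Pairing of libraries with the same number was checked through the correlation of their departures from group means across genes. For ThTC with GFP-TC the correlations were 0.74, 0.12 and 0.87 for numbers 1, 2 and 3. These were treated as pairs in an alternative fit and not in the main fit, although no label gives the meaning of the numbers. ThTC 2 correlated more with GFP-TC 1, at 0.38, than with GFP-TC 2. For ThTC with sECM only the correlations of equal numbers were -0.55, 0.28 and -0.21. For GFP-TC with sECM only they were -0.53, -0.14 and -0.19, and neither was treated as pairs. Alternatives changed the pseudocount, the filter, the scaling, the libraries in the fit, a brain tissue covariate, the replicate block and, added after the values were seen, a transcript length trend.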

Additional observations from a re-analysis of the deposited data

How the results depend on the processing

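Under all 22 alternatives to each comparison 0 of the 39 genes were called by limma at an adjusted p under 0.05. No fold change printed with an SE changed sign, but most of those genes were chosen for a small p. The printed values of Gins2 for ThTC over GFP-TC and of Ccnb2 for ThTC over sECM only were not followed. Other listed genes did change sign. With median-of-ratios scaling, those below 0 went from 33 to 24 for ThTC over GFP-TC and from 26 to 37 for GFP-TC over sECM only. The median of the replication genes for ThTC over GFP-TC was -0.15 and became -0.0115 with median-of-ratios scaling. In that fit the median of the mitosis genes went from -0.17 to -0.03 and that of all tested genes from -0.10 to 0.02. This scaling divides all genes of a library by 1 factor, so it moved both sets in the same direction. Why the factors differ between groups was not tested. Apart from the replication median first named, those of the listed genes moved by less than the spread between libraries. That spread was 0.1423 for mitosis and 0.1095 for replication medians. Leaving out each library in turn, the medians for ThTC over GFP-TC spanned -0.25 to -0.04 in mitosis and -0.24 to -0.07 in replication, and those for ThTC over sECM only -0.31 to -0.11 and -0.30 to -0.11. For GFP-TC over sECM only they spanned -0.10 to -0.0023 and -0.07 to -0.0091. The medians of all tested genes in these fits spanned -0.21 to -0.07 for ThTC over GFP-TC. They spanned -0.10 to 0.0026 for ThTC over sECM only and 0.03 to 0.16 for GFP-TC over sECM only. A replicate block over the 6 ThTC and GFP-TC libraries, treated as pairs, was fitted too: 8 of 13829 genes were called, against 0 with no block, and 0 of the 39 genes were among them. Their smallest adjusted p was 0.25, against 0.316 with no block. A block over 6 libraries in the other comparisons, whose libraries share only a number, gave 0 calls. The smallest limma adjusted p-values of the 39 genes were then 0.613 for ThTC and 0.999 for GFP-TC over sECM only. A block over all 9 libraries called 1 of 13829 genes for GFP-TC over sECM only. It called 0 for ThTC over GFP-TC and 0 for ThTC over sECM only, and 0 of the 39 genes in any comparison. Depth is unknown from TPM, so small differences of low genes such as Cenpf cannot be weighed against counting error.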
